A study of Mus musculus with 7 samples.

Results

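The genes described here are 9 regulators of fibrinolysis and blood coagulation in C2C12 myotubes: Plau, Plaur, Plat, Serpine2, F3, F13a1, Thbd, Procr and Tfpi. All 9 symbols were found among the 26607 genes listed for each library. They were chosen by name with their levels under electrical pulse stimulation (EPS) already known, so the values of the members are a description. How many of them passed a threshold is stated beside the share or number of all genes that did, and nothing is read from those counts. C2C12 myoblasts are an established mouse line that fuses into multinucleated myotubes. All libraries come from this 1 line, and the labels name no transgene or deletion. The control group holds 3 libraries of untreated myotubes (replicates 1, 3 and 4). The EPS group holds 4 libraries (replicates 1 to 4) of myotubes that were stimulated electrically at 1 Hz for 24 h, starting 3 days into differentiation, and then rested for 1 h. The study used EPS as a culture model of contracting muscle, without blood, vessels or nerves. The labels do not say whether the libraries of a group come from separate cultures, so the spread given is that between libraries and may be technical. Values of single libraries are listed in the order control replicates 1, 3, 4 and EPS replicates 1, 2, 3, 4.

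Fibrinolysis starts when urokinase (Plau) or tissue-type plasminogen activator (Plat) cleaves plasminogen to plasmin, which dissolves fibrin and also degrades matrix around cells. Urokinase acts at the cell surface on its receptor (Plaur), and protease nexin-1 (Serpine2) inhibits both activators and thrombin. Coagulation starts when tissue factor (F3) binds factor VII, and the activity of this complex is inhibited by tissue factor pathway inhibitor (Tfpi). Coagulation ends when the transglutaminase factor XIII (A subunit, F13a1) crosslinks fibrin. Thrombomodulin (Thbd) turns thrombin toward activation of protein C, which the endothelial protein C receptor (Procr) presents to it. In muscle, urokinase is known for its part in regeneration after injury.

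The libraries held 16616917 to 22120641 reads, so 3 reads, taken as the smallest level that can be told from 0, corresponded to 0.136 to 0.181 CPM, the reads of a gene scaled to a common library total. Control replicate 4 stood apart, with 359 genes at 1 to 5 reads, while the other 6 libraries had 2670 to 3181 such genes. Although it had the most reads, it had 14014 genes above 0, against 16144 to 16984 in the other 6. A value of 0 in this library is thus less sure to mean absence. Markers of myotubes were abundant, with a summed level of 9 genes of 10071 to 14862 CPM in the control and 8263 to 11270 CPM in the EPS group. Of these 9 genes, Actn2 was lower in every EPS library (30.4 to 48.1 CPM, against 48.8 to 99.4 CPM) and the other 8 overlapped. The summed level of 4 myoblast markers was lower in every EPS library (391 to 527 CPM) than in the control (567 to 736 CPM), as were Cdh15 and Myod1, while Myf5 and Pax7 overlapped between the groups. That of 4 proliferation markers was higher in every EPS library (304 to 902 CPM, against 196 to 279.9 CPM), although each of the 4 genes (Mki67, Top2a, Ccnb1 and Cdk1) overlapped between the groups and none was called. The summed level of 4 fibroblast markers overlapped (570 to 1055 CPM in the control and 504 to 1005 CPM in the EPS group), but Pdgfra was higher in every EPS library (27.14 to 33.98 CPM, against 12.30 to 24.01 CPM), and Thy1 had at most 3 reads in any library. The part of these shifts in the results was not tested, and in whole cultures fewer cells of a type and less RNA per cell cannot be told apart.

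Both plasminogen activators were lower after EPS, F13a1 and Procr were higher, and the other 5 genes overlapped between the groups. Of the 9 genes, 4 (Plau, Plat, F13a1 and Procr) had groups that did not overlap, where 10.6% of the 19144 tested genes did not. In limma on log2(CPM + 1), 3 members passed an unadjusted P under 0.01 and a change of over 2-fold, Plat downward and F13a1 and Procr upward. Over all tested genes 1.41% passed, 0.966% upward and 0.439% downward. No member had a Benjamini-Hochberg adjusted p under 0.05, which 0.141% of the tested genes had. The count was 4 with an unadjusted P below 0.05, as for 11.6% of the tested genes. On reads recovered from the CPM, adjusted p fell below 0.05 for 4 members in edgeR, where 1.51% of all genes did. In DESeq2 it did for 4 members, and for 3.39% of the 14676 genes with an adjusted p there. In limma it did for 3 members with a pseudocount of 0.1 (0.554% of all genes) and for 3 among genes with a mean of at least 1 CPM (0.987%). Without control replicate 4, F13a1 was the 1 member past P under 0.01 and 2-fold in limma, where 209 genes passed in all. Procr was also lost without control replicate 1 or 3, where 249 and 325 genes passed in all. The median log2 fold change was 0.44 over the members and 0.041 over all tested genes. It was 0.10 over the 12256 genes with a mean of at least 1 CPM, and -0.0048 for them after median-of-ratios scaling, so upward values on the deposited scale are larger by about that shift.

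**Figure D1:**
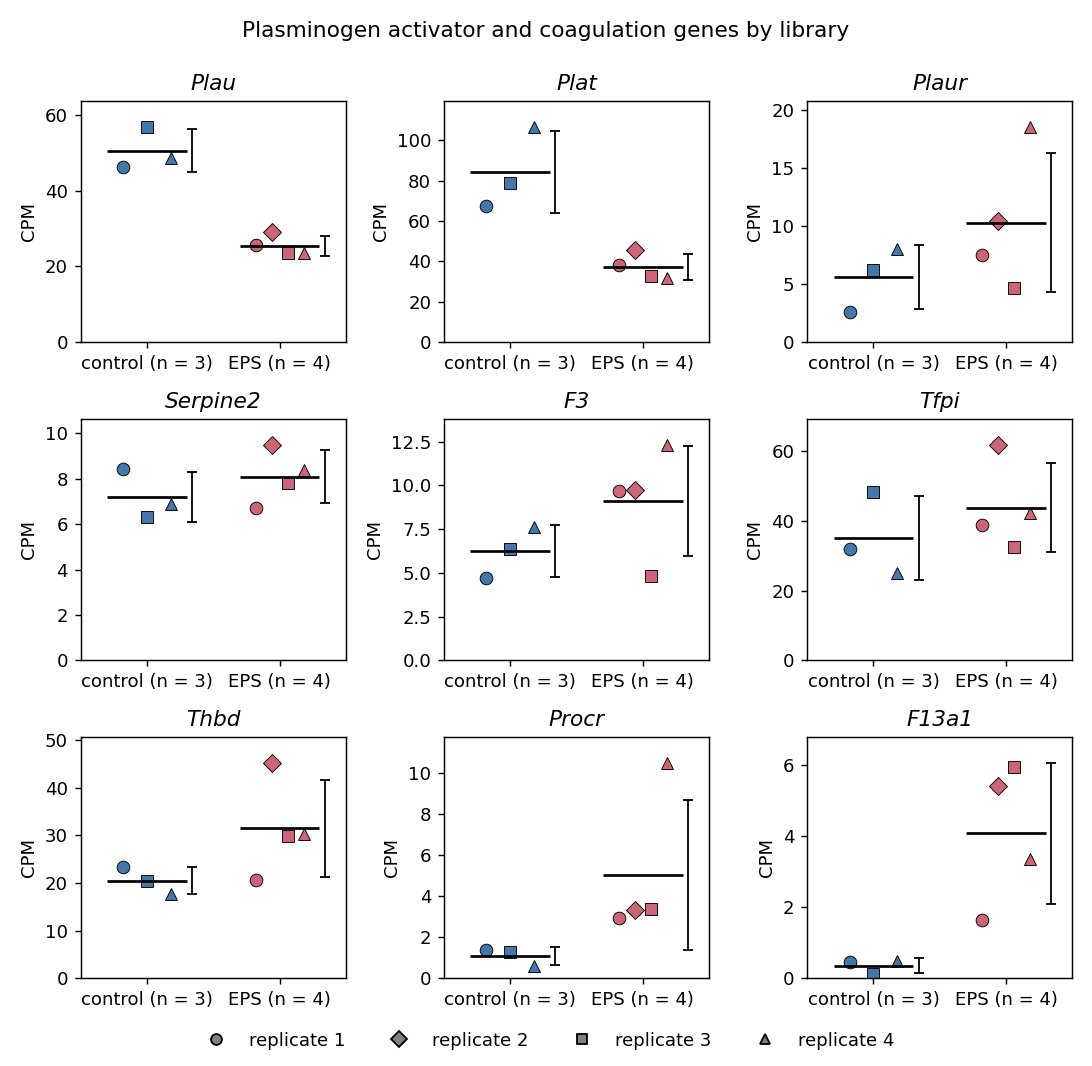
Level of each gene in every library, in CPM on linear axes that start at 0; points are libraries with the marker giving the replicate number, the horizontal line is the group mean and the bar beside it the SD. The EPS points of Plau and Plat lie below all control points, those of F13a1 and Procr above them, and Procr reaches 10.5 CPM in EPS replicate 4.

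Plau (ENSMUSG00000021822.3) is encoded on chromosome 14 (GRCm38, 20836660 to 20843385). Expression was 46.2, 56.9 and 48.6 CPM without stimulation, against 25.6, 29.2, 23.5 and 23.5 CPM after it. The groups were fully separate, with EPS lower, and the spread was small in both groups, with a coefficient of variation of 11.1% in the control and 10.5% in the EPS group. Expression averaged 50.6 ± 5.60 CPM (SD, n = 3) unstimulated and 25.5 ± 2.67 CPM (SD, n = 4) stimulated, or 50.4% of the control. Its log2 change was -0.96 (standard error 0.16), just short of 2-fold. Plau passed P under 0.01 and 2-fold in 7 of 15 alternatives. The change was -1.07 after median-of-ratios scaling and after quantile normalization, -1.09 in edgeR and -1.10 in DESeq2. It was -1.03 with the replicate number as a block, -1.02 without control replicate 1 and -1.03 without EPS replicate 2. The smallest change was -0.88, without control replicate 3.

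Plat (ENSMUSG00000031538.6), on chromosome 8 from 22757727 to 22782844, was at 67.2, 79.0 and 106.6 CPM without stimulation. After EPS it was at 38.3, 45.7, 32.9 and 31.5 CPM. The groups did not overlap, and the highest control value was that of replicate 4. Expression averaged 84.3 ± 20.2 CPM (SD, n = 3) unstimulated and 37.1 ± 6.43 CPM (SD, n = 4) stimulated, or 44.0% of the control. Its log2 fold change was -1.15 (standard error 0.20), and -0.97, under 2-fold, without control replicate 4.

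Both activators were highest in replicate 2 and next in replicate 1 within the EPS group. The ratio of Plat to Plau CPM was 1.46, 1.39 and 2.19 without stimulation, against 1.49, 1.57, 1.40 and 1.34 after it. Apart from control replicate 4, the ratio thus stayed within 1.34 to 1.57 while the level of each gene was lower. The summed CPM of both was 135 ± 20.9 (SD, n = 3) in the control and 62.6 ± 9.08 (SD, n = 4) in the EPS group. These sums do not weigh the genes by length.

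For the urokinase receptor the groups overlapped. Plaur (ENSMUSG00000046223.10), on chromosome 7 from 24462484 to 24475968, was at 2.62, 6.26 and 8.05 CPM without stimulation, against 7.54, 10.4, 4.70 and 18.6 CPM after it. EPS replicates 2 and 4 were above all control libraries, and replicates 1 and 3 within their range. Expression averaged 5.64 ± 2.76 CPM (SD, n = 3) unstimulated and 10.3 ± 5.99 CPM (SD, n = 4) stimulated. Its log2 fold change was 0.72 (standard error 0.47). It was 0.33 without control replicate 1 and 0.41 without EPS replicate 4, but 0.99 without control replicate 4 and 1.00 without EPS replicate 3.

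Serpine2 (ENSMUSG00000026249.10), on chromosome 1 from 79794197 to 79861180, showed the smallest difference of the 9 genes. Its values were 8.45, 6.32 and 6.87 CPM without stimulation, against 6.70, 9.50, 7.81 and 8.39 CPM after it, so the groups overlapped. Expression averaged 7.21 ± 1.11 CPM (SD, n = 3) unstimulated and 8.10 ± 1.17 CPM (SD, n = 4) stimulated. The log2 fold change was 0.15 (standard error 0.23) on the deposited scale and 0.05 after median-of-ratios scaling, and with 1 library left out it lay between 0.07 (without control replicate 3) and 0.25 (without control replicate 1).

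Tissue factor, F3 (ENSMUSG00000028128.13), lies on chromosome 3 from 121723537 to 121735048. It was at 4.72, 6.38 and 7.64 CPM without stimulation, against 9.68, 9.74, 4.80 and 12.3 CPM after it. In EPS, 3 libraries were above the control range, and replicate 3 was near its lower end. Expression averaged 6.25 ± 1.46 CPM (SD, n = 3) unstimulated and 9.14 ± 3.14 CPM (SD, n = 4) stimulated. The log2 fold change was 0.44 (standard error 0.33), and 0.28 after quantile normalization. Leaving out 1 library moved it between 0.28 (without control replicate 1) and 0.69 (without EPS replicate 3), and it was 0.29 without EPS replicate 4.

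The inhibitor of tissue factor, Tfpi (ENSMUSG00000027082.15), lies on chromosome 2 from 84432855 to 84476775. It was at 32.0, 48.4 and 25.0 CPM without stimulation, against 38.8, 61.9, 32.4 and 42.3 CPM after it. The groups overlapped, and EPS replicate 2 was the highest library. Expression averaged 35.1 ± 12.1 CPM (SD, n = 3) unstimulated and 43.8 ± 12.7 CPM (SD, n = 4) stimulated. The log2 fold change was 0.32 (standard error 0.27), and leaving out 1 library moved it between 0.11 (without control replicate 4, the lowest value) and 0.58 (without control replicate 3, the highest control). The ratio of Tfpi to F3 CPM was 5.88 ± 2.30 (SD, n = 3) in the control and 5.14 ± 1.66 (SD, n = 4) in the EPS group, within the spread between libraries.

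Thbd (ENSMUSG00000074743.4), on chromosome 2 from 148404466 to 148408188, was at 23.3, 20.4 and 17.7 CPM without stimulation. It was at 20.7, 45.2, 29.7 and 30.3 CPM after EPS. EPS replicate 1 lay within the control range and the other EPS libraries above it. Expression averaged 20.4 ± 2.79 CPM (SD, n = 3) unstimulated and 31.5 ± 10.1 CPM (SD, n = 4) stimulated. The log2 fold change was 0.55 (standard error 0.25), and 0.45 after median-of-ratios scaling. It lay between 0.37 (without EPS replicate 2) and 0.73 (without EPS replicate 1) when 1 library was left out.

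Procr (ENSMUSG00000027611.12), on chromosome 2 from 155751117 to 155755471, was low in the control, with 24, 21 and 13 reads (1.40, 1.26 and 0.588 CPM). After EPS it had 63, 68, 74 and 198 reads, or 2.93, 3.31, 3.38 and 10.5 CPM. The groups were fully separate, with EPS higher, and EPS replicate 4 was far above the rest. Expression averaged 1.08 ± 0.435 CPM (SD, n = 3) unstimulated and 5.04 ± 3.66 CPM (SD, n = 4) stimulated, a 4.65-fold difference of means. Without EPS replicate 4 it was 2.96-fold. Its log2 fold change on the log2(CPM + 1) scale was 1.40 (standard error 0.39), and 1.04 without EPS replicate 4. Without control replicate 1, 3 or 4 it was 1.51, 1.47 and 1.21, and in each of these 3 fits Procr was no longer among the genes past P under 0.01 and 2-fold in limma.

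The ratio of Thbd to Procr CPM was 20.9 ± 7.91 (SD, n = 3) in the control and 8.09 ± 4.45 (SD, n = 4) in the EPS group. The values did not overlap, at 16.1 to 30.1 in the control and 2.88 to 13.6 in the EPS group. Procr alone was already separate between the groups, and the control ratios rest on 13 to 24 reads of Procr. How often ratios of other gene pairs separate was not counted. Endothelial cells are the best known source of Thbd, Procr and Tfpi. Of 7 endothelial markers, Tie1 and Emcn had no read and Kdr at most 3 reads in any library. The summed level was 1.62 to 3.30 CPM in the control and 1.01 to 1.91 CPM in the EPS group. Tek had 8, 13 and 14 reads without stimulation, against 20, 15, 14 and 14 reads after it. Vwf had 24, 13 and 39 against 13, 12, 22 and 2 reads. Pecam1 had 1, 0 and 20 against 1, 2, 0 and 1 reads, and Cdh5 6, 1 and 0 against 4, 2, 2 and 1 reads. Each of these overlapped between the groups in CPM. The part of these markers in the levels of Thbd, Procr and Tfpi was not tested.

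F13a1 (ENSMUSG00000039109.16), on chromosome 13 from 36867178 to 37050244, had the largest difference of the 9 genes. It was below 1 CPM in the control, with 8, 2 and 11 reads (0.466, 0.120 and 0.497 CPM). After EPS it had 35, 111, 130 and 63 reads, or 1.63, 5.41, 5.94 and 3.35 CPM. The groups did not overlap, and EPS replicate 1 was the lowest of its group. Expression averaged 0.361 ± 0.209 CPM (SD, n = 3) unstimulated and 4.08 ± 1.98 CPM (SD, n = 4) stimulated, an 11.3-fold difference of means that rests on few control reads. The log2 fold change was 1.81 (standard error 0.34) with a pseudocount of 1 CPM, and 3.34 in edgeR on the recovered reads. An exon of the antisense gene Gm30489 overlaps F13a1. The study used a directional library kit, but the use of strand in counting is not given, so reads of both cannot be told apart here.

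Macrophages and platelets are known sources of F13a1. Of 6 macrophage markers, Adgre1 had no read and Ptprc at most 3 reads in any library, and the summed level was 6.18 to 9.21 CPM in the control and 6.58 to 14.3 CPM in the EPS group, most of it Cd14. The remaining macrophage markers were low. Csf1r had 2, 3 and 0 reads without stimulation, against 8, 6, 5 and 13 reads after it, with no overlap in CPM. Cd68 had 9, 14 and 24 against 18, 28, 32 and 39 reads, and Lyz2 3, 5 and 20 against 5, 2, 4 and 2 reads, both with overlap in CPM. Of 4 platelet markers, Pf4 had at most 3 reads in any library, and the summed level was 3.26 to 3.62 CPM in the control and 1.96 to 3.79 CPM in the EPS group, most of it Itga2b. Ppbp had 2, 2 and 0 reads against 2, 7, 6 and 11 reads, and Gp1ba 11, 6 and 6 against 8, 5, 14 and 4 reads, both with overlap in CPM. The part of these markers in the level of F13a1 was not tested.

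**Figure D2:**
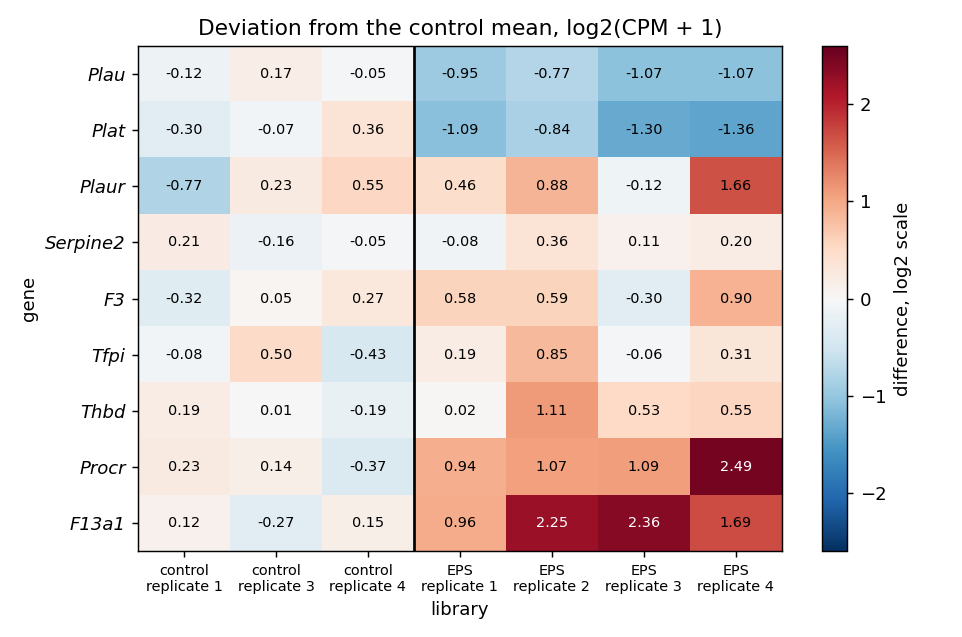
Difference of each library (columns) from the control mean of the gene (rows), on the log2(CPM + 1) scale, with red above and blue below the control mean. EPS replicate 4 holds the highest values of Plaur (1.66), F3 (0.90) and Procr (2.49), while F13a1 is highest in EPS replicates 2 and 3.

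Within the EPS group, Plaur, F3 and Procr were highest in replicate 4, which was the highest EPS library in 21.8% of the 12256 genes with a mean of at least 1 CPM. Plau, Plat, Serpine2, Thbd and Tfpi were highest in EPS replicate 2, which was so in 41.9% of those genes. F13a1 alone was highest in EPS replicate 3. EPS replicate 3 was also the lowest EPS library for Plaur, F3 and Tfpi. For Plau it was level with replicate 4, both at 23.5 CPM. The proliferation markers Mki67, Top2a, Ccnb1 and Cdk1 were highest in EPS replicate 4 too, at 452, 262, 100 and 88.5 CPM. Their part in the levels of Plaur, F3 and Procr was not tested.

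RefSeq promoters on GRCm38.p6, from 250 bases before to 50 after the RefSeq gene start, were at hand for 6 members (Plaur, Serpine2, F3, F13a1, Procr and Tfpi), 8 promoters in all, and not for Plau, Plat and Thbd. The promoters of Plaur, F3 and Procr are shown because they hold the AP-1 motif, and these are also the 3 genes highest in EPS replicate 4, a pairing noticed after the values were seen. The motif TGANTCA, searched on both strands, was in 3 of the 8 and in 7.81% of all 32851 promoters. Capitals mark its matches, which are a description and not evidence of binding. The sequences are chr7:24462233-24462532 (plus strand, Plaur), chr3:121723287-121723586 (plus strand, F3) and chr2:155750967-155751266 (plus strand, Procr), each written 5′ to 3′ along the gene.
Plaur: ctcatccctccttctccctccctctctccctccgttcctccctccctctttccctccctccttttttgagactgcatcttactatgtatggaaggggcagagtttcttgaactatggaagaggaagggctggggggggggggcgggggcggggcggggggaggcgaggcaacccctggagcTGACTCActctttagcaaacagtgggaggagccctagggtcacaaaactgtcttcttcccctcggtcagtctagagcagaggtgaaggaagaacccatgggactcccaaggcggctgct
F3: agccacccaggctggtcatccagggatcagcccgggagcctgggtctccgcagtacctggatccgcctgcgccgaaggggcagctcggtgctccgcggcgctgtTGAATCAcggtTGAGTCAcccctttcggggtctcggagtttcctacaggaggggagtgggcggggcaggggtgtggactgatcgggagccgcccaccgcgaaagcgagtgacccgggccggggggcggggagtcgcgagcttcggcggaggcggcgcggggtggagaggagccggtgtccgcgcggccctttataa
Procr: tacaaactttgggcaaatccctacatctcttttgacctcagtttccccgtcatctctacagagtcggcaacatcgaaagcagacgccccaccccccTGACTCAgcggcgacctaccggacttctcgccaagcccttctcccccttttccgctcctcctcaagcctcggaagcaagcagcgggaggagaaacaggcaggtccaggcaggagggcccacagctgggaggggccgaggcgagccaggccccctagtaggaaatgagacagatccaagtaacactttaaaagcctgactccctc
Counted from the RefSeq start, the match in Plaur began 69 bases upstream, those in F3 began 146 and 135 bases upstream, and that in Procr 154 bases upstream. The RefSeq start of Procr lies 100 bases downstream of the GENCODE start given above, from which its match is 54 bases upstream.

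Of the other motifs searched, the antioxidant response core TGACNNNGC was in 1 of the 8 promoters, that of Procr, and in 12.4% of all promoters. In Procr this match covers the AP-1 match. The xenobiotic response core GCGTG was in 0 of 8 and in 32.4%, the E-box CANNTG in 6 and in 72.3%, and the SP1 motif GGGCGG in 5 and in 35.7%. The serum response pattern, CC and GG separated by 6 bases of any kind, was in 7 of 8 and in 73.3%.

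Per length of exon, the activators stood highest in the control. Over the union of annotated exons, the control level was 21.4 ± 2.37 CPM per kb (SD, n = 3) for Plau, 13.5 ± 3.24 for Plat, 6.43 ± 2.21 for Tfpi and 5.49 ± 0.750 for Thbd. It was 2.47 ± 0.579 CPM per kb for F3, 2.16 ± 1.06 for Plaur, 0.871 ± 0.134 for Serpine2, 0.534 ± 0.214 for Procr and 0.0536 ± 0.0311 for F13a1. In this order the libraries of Tfpi and Thbd, of F3 and Plaur, and of Plaur and Serpine2 overlapped, and the other neighbours did not. In the EPS group Plau was at 10.8 ± 1.13 CPM per kb (SD, n = 4) and was followed by Thbd (8.45 ± 2.72), Tfpi (8.02 ± 2.32), Plat (5.95 ± 1.03), Plaur (3.94 ± 2.29), F3 (3.62 ± 1.24), Procr (2.48 ± 1.80), Serpine2 (0.978 ± 0.141) and F13a1 (0.605 ± 0.294). Among neighbours in the EPS order, Procr and Serpine2 were the only pair whose libraries did not overlap, so Plau no longer stood apart from Thbd, nor Plat from Tfpi. The exon union may differ from the isoforms that these cells use.

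**Figure D3:**
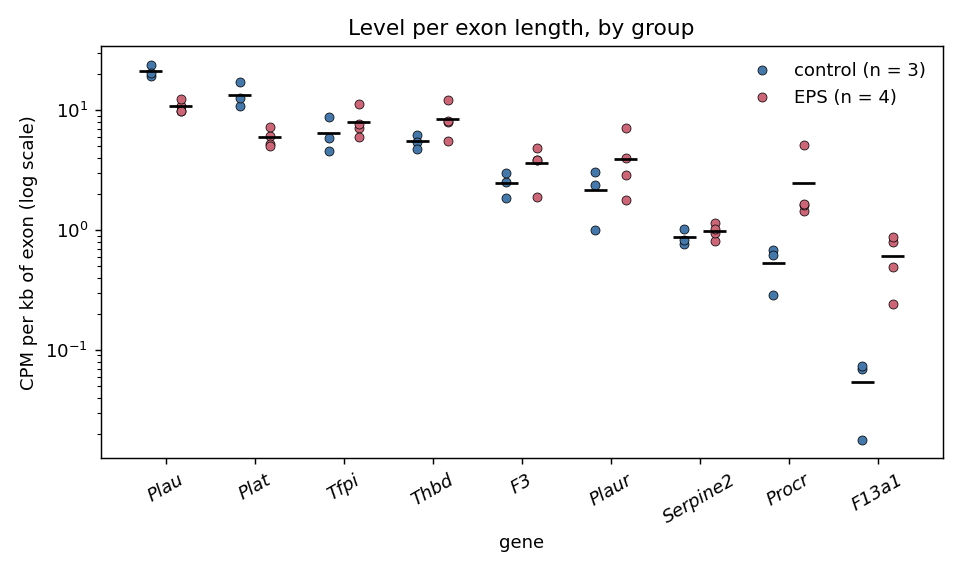
Level of each gene in CPM per kb of exon, on a log axis, ordered by the control mean; points are libraries and horizontal lines group means. In the control the 9 genes span from 21.4 (Plau) to 0.0536 CPM per kb (F13a1), and in the EPS group from 10.8 to 0.605 CPM per kb.

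For each member, the most similar other gene was sought among 12247 genes with a mean of at least 1 CPM, by the root mean square (RMS) difference of log2(CPM + 1) profiles over the 7 libraries, each centred on its mean. The profile of Plau was closest to that of Socs3 (RMS difference 0.122), a feedback inhibitor of cytokine signaling, which averaged 46.8 ± 5.92 CPM (SD, n = 3) unstimulated and 26.6 ± 2.10 CPM (SD, n = 4) stimulated. That of Procr was closest to Abcc4 (0.141), an efflux pump, at 7.68 ± 1.23 and 25.9 ± 13.5 CPM. That of F13a1 was closest to Fbxo40 (0.254), a muscle ubiquitin ligase component, at 10.3 ± 0.709 and 39.0 ± 11.2 CPM. The closest genes were I830127L07Rik for Plat (0.153), Ube2t for Plaur (0.214), Rnf146 for Serpine2 (0.0747), Cenpp for F3 (0.099), Dtd1 for Thbd (0.127) and Tfb2m for Tfpi (0.0333). With 7 libraries and this many genes, close profiles are found for most patterns.

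Other genes of the system, a list of 53 chosen for textbook roles, held no gene past the same thresholds. All 53 were listed and 45 had a read in at least 1 library. In limma 0 of the 45 passed P under 0.01 and 2-fold in either direction, where 1.41% of all tested genes did. The count was 8 of 45 at an unadjusted P under 0.05, which 11.6% of all tested genes had, and 0 at an adjusted p under 0.05. In edgeR 3 passed P under 0.01 and 2-fold (Plg, F9 and F2rl3), where 3.29% of all genes did, and in DESeq2 3 did (Plg, F2rl1 and F2rl3), where 3.06% did. F9 had 25 reads in control replicate 4, the library that stood apart, and 0 reads in the other 6, so its lower level after EPS rests on 1 library. The groups did not overlap in 4 of the 45, or 8.89%, against 10.6% of all tested genes, and the median log2 fold change was -0.0047. No read was found in any library for F10, F11, Fga, Fgb, Fgg, Proc, Serpina5 and Serpina10, and 18 of the 53 genes had at most 3 reads in every library.

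Among the 12 most abundant genes of the list, those of the plasminogen system included the matrix protein Thbs1, the clearance receptors Lrp1 and Mrc2, and the plasminogen-binding Eno1, Anxa2 and S100a10. Thbs1 averaged 5257 ± 1486 CPM (SD, n = 3) unstimulated and 4803 ± 713 CPM (SD, n = 4) stimulated, and Lrp1 at 2025 ± 693 and 2191 ± 708 CPM. Both overlapped between the groups, and both, like S100a10, F2r and Pros1, changed sign among the alternatives. Eno1, Anxa2 and S100a10 had log2 fold changes of 0.33, 0.33 and 0.20, and Mrc2 of -0.46, with adjusted p from 0.422 to 0.831 in limma. Reads of Eno1 are uncertain because near-identical copies of the gene exist.

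The other abundant genes of the list were the thrombin receptor F2r, the phospholipid-binding Anxa5, the transglutaminase Tgm2, the protein C cofactor Pros1 and the protease inhibitor Serping1. F2r averaged 169 ± 46.4 CPM (SD, n = 3) unstimulated and 146 ± 9.85 CPM (SD, n = 4) stimulated, and Pros1 45.1 ± 5.22 and 46.3 ± 2.77 CPM. Tgm2, of the same enzyme family as F13a1, was at 54.8 ± 14.4 and 63.1 ± 9.65 CPM. Anxa5 and Serping1 had log2 fold changes of -0.21 and -0.22. Adjusted p for these 5 genes lay between 0.652 and 0.922 in limma, and all overlapped between the groups.

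The 4 genes of the list whose groups did not overlap, named after their values were seen, were Plg, F8, F2rl1 and F2rl3. F2rl3, a thrombin receptor, had 30, 16 and 52 reads without stimulation, against 11, 3, 11 and 9 reads after it. It averaged 1.69 ± 0.696 CPM (SD, n = 3) unstimulated and 0.410 ± 0.176 CPM (SD, n = 4) stimulated, which is -0.91 ± 0.19 (SE) in log2(CPM + 1) with an adjusted p of 0.113 in limma. Over the alternatives its adjusted p ran from 0.0157 in DESeq2 to 0.523. F2rl1, a receptor cleaved by trypsin-like proteases, was at 1.74 ± 0.394 and 0.787 ± 0.0767 CPM (adjusted p = 0.152 from limma). Coagulation factor VIII (F8), at 2.62 ± 1.37 and 5.81 ± 1.36 CPM, differed by 0.98 in log2(CPM + 1), with an adjusted p of 0.301 in limma. Without control replicate 4, which had 1.04 CPM of F8 while control replicates 1 and 3 had 3.44 and 3.37 CPM, the difference was 0.61. Plasminogen itself (Plg) had 0 reads in each control library and 1, 4, 8 and 8 reads after EPS, above 3 reads in 3 of the 4 EPS libraries.

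**Figure D4:**
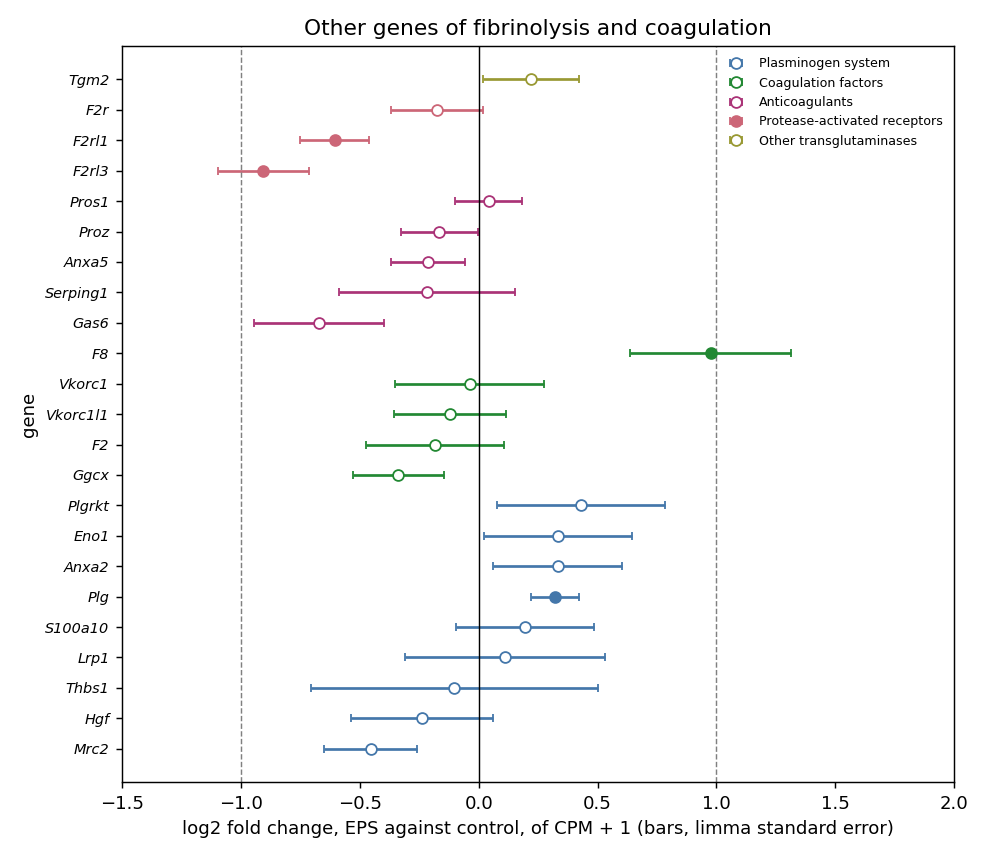
Log2 fold change of EPS against control, on the log2(CPM + 1) scale, for genes of the list with a mean of at least 1 CPM, and for F2rl3 and Plg; bars are limma standard errors, dashed lines mark 2-fold, and filled points are genes whose groups did not overlap. No point lies beyond the 2-fold lines, with F8 (0.98) and F2rl3 (-0.91) nearest to them.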

How the data were processed

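RNA-seq libraries of C2C12 myotubes, 3 control and 4 EPS, were grouped by their labels. The authors mapped reads to GRCm38 with STAR 2.5.4b, per the methods and the submitters' processing notes, and deposited values in CPM, scaled to the total over the listed genes. The read counter, gene annotation, strand setting and handling of multi-mapped reads are not given in the sources used here. In each library 100% of the values were whole multiples of 1 read (within 0.01 reads plus an allowance for the digits given), and whole reads were recovered.

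The 19144 genes with any read were tested on log2(CPM + 1) with limma 3.58.1 (R 4.3.3, empirical Bayes with trend), EPS against control over 7 libraries without covariate, two-sided, with Benjamini-Hochberg adjustment over all of them. Calls used P under 0.01 and 2-fold. The study tested with edgeR, and its log2 transformation and quantile normalization are not in the deposited values. Because the deposited unit is CPM, edgeR 4.0.16 (quasi-likelihood) and DESeq2 1.42.0 on recovered reads were alternatives, beside pseudocounts of 0.1 and 0.5, a mean of at least 1 CPM, quantile normalization, median-of-ratios scaling, P under 0.001, the replicate number as a block, and leaving out each library. On simulated reads, 200 of 18593 genes were changed by 4-fold, all drawn from genes with a mean of at least 1 CPM. Of these limma recovered 189 and called 11 others, edgeR 196 and 93, and DESeq2 196 and 69. Recovery of lower genes and of smaller changes was not tested.

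The members, the list of 53 genes and the marker lists were chosen with earlier results of these data known. The genes named are the members, the called genes and the 12 most abundant genes of the list, and the gene closest in profile to each member. The values of 1 gene of the list are not reported here. Symbols were looked up in GENCODE M21 (GRCm38) for coordinates and exon lengths, and older symbols were matched through RefSeq (Plgrkt, Adgre1). Standard deviations and floors cover these libraries and counting error only, as PCR copies of a molecule are counted as separate reads.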

Additional observations from a re-analysis of the deposited data

Results flagged for a closer look

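Of 25 genes examined in the 4 EPS libraries (the 9 members and 16 genes of the list), 2 had 1 library far from the others by Dixon's criterion, where chance marks about 1 group in 20. Procr in EPS replicate 4 was at 10.5 CPM, against 2.93 to 3.38 CPM in the other EPS libraries. F2rl3 in EPS replicate 2 was at 0.146 CPM, or 3 reads, against 0.478 to 0.512 CPM in the others.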

How the results depend on the processing

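Over 15 alternatives, log2 fold changes of the 9 members moved by less than the SD between libraries in 130 of 135 cases. The exceptions were F13a1, at 3.16 with a pseudocount of 0.1, 3.34 in edgeR and 3.35 in DESeq2, and Procr, at 2.13 in edgeR and 2.11 in DESeq2. Both are low genes, whose fold change a pseudocount of 1 pulls toward 0. No member changed sign, though Serpine2 was at 0.00 after quantile normalization. Genes passing P under 0.01 and 2-fold numbered 269 in limma, 601 with a pseudocount of 0.1, 629 in edgeR, 585 in DESeq2 and 106 at P under 0.001. Upward calls made up 68.8% of them on the deposited scale, 51.6% after quantile normalization, 52.8% after median-of-ratios scaling, 52.3% in edgeR and 54.2% in DESeq2. Of the 53 listed genes, 45 were tested, or 44 in some of the fits with a library left out. Of the tested ones, 2 passed with a pseudocount of 0.1, 1 with 0.5, 3 in edgeR and 3 in DESeq2. When a library was left out 0 to 1 passed (F2rl3, without control replicate 3). Over all genes 372 passed with a pseudocount of 0.5, and 209 to 325 when a library was left out. With the replicate number as a block 161 genes passed, among them Plau (-1.03) and Plat (-1.25) but not F13a1 (1.67) or Procr (1.51), on 3 pairs. Deviations of same-numbered libraries correlated across genes at 0.25, -0.45 and 0.068 for replicates 1, 3 and 4, so the numbers were not taken to pair the libraries. Genes under about 0.2 CPM cannot be told from 0 at this depth.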
